A study of Caenorhabditis elegans with 12 samples.

Results

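The genes described here are 3 mitochondrial chaperones, *hsp-6*, *hsp-60* and *dnj-10*, and 4 regulators of the mitochondrial unfolded protein response (UPRmt), *atfs-1*, *dve-1*, *ubl-5* and *haf-1*. These 7 genes were taken by name and function from the 46904 genes of the count files. Transcript levels were compared across 4 strains of *C. elegans*, each sampled as whole young adult worms after synchronization with bleach, with 3 polyA RNA-seq libraries per strain. Beside wild type there were 2 single mutants, *gsr-1a(syb266)* and *trxr-2(tm2047)*, as well as *gsr-1a trxr-2*, which carries both alleles and is called the double mutant below. The *syb266* allele removes the first exon of *gsr-1*, which encodes the mitochondrial targeting sequence, so that the cytosolic form GSR-1b remains, while *tm2047* is a loss-of-function deletion of *trxr-2*, the gene of mitochondrial thioredoxin reductase. Glutathione reductase and thioredoxin reductase use NADPH to keep glutathione and thioredoxins reduced, and the comparison asks how transcripts of the UPRmt respond when 1 or both of these mitochondrial enzymes are lost.

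Proteins imported into mitochondria are folded by a matrix Hsp70 and by a chaperonin of the Hsp60 class, and damaged proteins are removed by mitochondrial proteases. When folding or import fails, a signal from mitochondria to the nucleus raises the transcription of these chaperones and proteases, and in *C. elegans* the promoters of *hsp-6* and *hsp-60* drive the most widely used reporters of the response. Its regulators act largely through their location and their binding partners, so a regulator may be active without a change in its own transcript.

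The 7 genes lie on 5 chromosomes of the WBcel235 genome and all encode proteins. *hsp-6* (WBGene00002010, chromosome V, 4824130 to 4826760, minus strand, 4 exons) encodes the mitochondrial Hsp70. *hsp-60* (WBGene00002025, chromosome III, 1619742 to 1625797, plus strand, 4 transcripts with 3 to 6 exons) encodes the mitochondrial chaperonin. *dnj-10* (WBGene00001028, chromosome III, 8631165 to 8633549, plus strand, 2 transcripts with 8 to 9 exons) encodes a mitochondrial J-domain protein, a class of cochaperones that deliver clients to Hsp70 and stimulate its ATPase. *atfs-1* (WBGene00013878, chromosome V, 14193685 to 14197695, plus strand, 7 transcripts with 3 to 9 exons) encodes the bZIP transcription factor of the UPRmt, which is imported into healthy mitochondria and degraded there, and reaches the nucleus when import is impaired. *dve-1* (WBGene00022861, chromosome X, 427043 to 433799, minus strand, 10 transcripts with 6 to 9 exons) encodes a homeodomain protein related to SATB factors. *ubl-5* (WBGene00006726, chromosome I, 5607820 to 5608841, minus strand, 1 transcript with 2 exons) encodes a small ubiquitin-like protein that binds DVE-1. *haf-1* (WBGene00001811, chromosome IV, 17376427 to 17379317, plus strand, 9 exons) encodes an ABC transporter subunit of the mitochondrial inner membrane that exports peptides to the cytosol. None of the 7 overlapped another gene on the same strand, and *haf-1* overlapped 1 gene, *C30H6.9*, on the opposite strand, which stranded counting keeps apart.

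The 12 libraries held 12114187 to 19688212 counted read pairs each, with a median of 16360615. Counts of *trxr-2* matched the labels, with 706 pairs summed over the wild type libraries, 583 in *gsr-1a* and 2 in each of the strains that carry *tm2047*. Counts over the whole of *gsr-1* cannot resolve the loss of its first exon, and its mean level was between 258.4 and 285.7 CPM in all 4 strains. CPM here means counts normalised to the library size after TMM scaling, and the errors of CPM values are SDs over 3 libraries. Wild type library 1 and *trxr-2* library 1 stood apart. The 6 yolk protein genes (*vit* genes, transcribed in the adult intestine) took 0.300% of the scaled counts in the first and 1.69% in the second, against 3.45% to 7.64% in the other 10 libraries. For several of the results below, values without these libraries are therefore also given. The labels give only a replicate number, and the study describes independent experiments. The p-values measure the spread between these libraries.

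All 7 genes passed the filter on low counts. Per kilobase of exon, the level averaged over the 12 libraries fell in the order *hsp-6* (331 CPM per kb), *hsp-60* (248), *ubl-5* (108), *atfs-1* (58.7), *dnj-10* (44.9), *dve-1* (4.95) and *haf-1* (3.77). Both large chaperones were thus above the J-domain gene *dnj-10*, and the transporter gene *haf-1* was lowest. The lowest raw count of any of these genes in a library was 80, for *haf-1*.

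**Figure D1:**
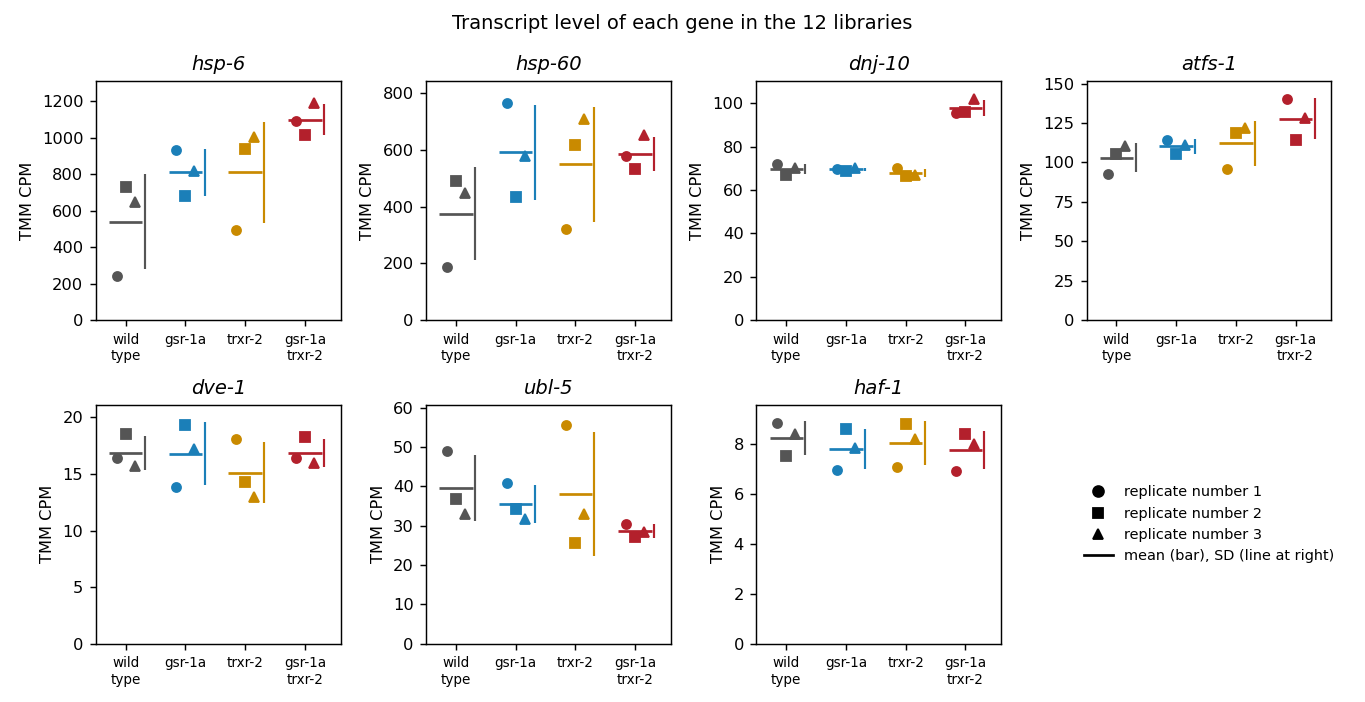
Level of each of the 7 genes in every library, in CPM after TMM scaling (vertical axes start at 0), by strain, with a symbol for each replicate number, a bar for the mean and a line for the SD of 3 libraries. The 3 double mutant libraries of *dnj-10* lie at 95.7 to 102.2 CPM, above the other 9 at 66.3 to 72.0, whereas *hsp-6* and *hsp-60* have low points in wild type library 1 and *trxr-2* library 1.

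*dnj-10* was the only member whose rise in the double mutant against wild type passed the test (adjusted p under 0.05), at 1.41-fold. Its level in both single mutants was that of wild type within the spread. Its levels were 72.0, 67.1 and 69.97 CPM in wild type libraries 1, 2 and 3. They were 69.9, 68.8 and 70.02 CPM in *gsr-1a* and 70.1, 66.3 and 67.0 CPM in *trxr-2*. The double mutant libraries held 95.7, 95.9 and 102.2 CPM. Every double mutant library was thus above all 9 others, and the 3 other strains lay on top of one another, with means of 69.7 ± 2.48 (wild type), 69.6 ± 0.659 (*gsr-1a*) and 67.8 ± 2.04 CPM (*trxr-2*) against 97.9 ± 3.71 CPM in the double mutant. The log2 fold change of the double mutant against wild type was 0.49 (SE 0.08, 95% interval 0.31 to 0.68, adjusted p = 0.00298 by edgeR's quasi-likelihood test, adjusted by Benjamini-Hochberg across 15004 genes). Against *gsr-1a* it was 0.49 (SE 0.08, adjusted p = 0.00842) and against *trxr-2* 0.53 (SE 0.08, adjusted p = 0.00188) by the same edgeR test. In both single mutants the edgeR estimate was close to 0, with a 95% interval of -0.19 to 0.18 for *gsr-1a* and of -0.22 to 0.15 for *trxr-2*. Within each replicate number the double mutant exceeded wild type by 1.33, 1.43 and 1.46-fold. Folds within a number, here and below, only describe the libraries, since the labels do not say what a number marks. The rise against wild type and against *trxr-2* kept its call in all 21 alternative analyses. Against *gsr-1a* it kept its call in 18 of 21, and it was lost without *gsr-1a* library 2, without *gsr-1a* library 3 or without double mutant library 3, where the highest adjusted p by edgeR was 0.0638.

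The interaction, which asks whether the double mutant departs from the sum of both single mutant changes on the log2 scale, was 0.53 for *dnj-10* (SE 0.12, 95% interval 0.27 to 0.79). Its adjusted p of 0.0744 by edgeR's quasi-likelihood test missed the threshold of 0.05, at which 0.766% of all genes were called. It was called in 4 of 20 alternatives, with an adjusted p of 0.0019 by DESeq2, and the range over the alternatives was 0.0019 to 0.257. No interaction of the other 6 genes was called in any alternative.

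*hsp-6* had the highest mean in the double mutant, 1098 ± 87.0 CPM, while wild type had 539.9 ± 260.7, *gsr-1a* 809.3 ± 127.5 and *trxr-2* 810.0 ± 276.5 CPM, but this rise missed the threshold. Wild type libraries 1, 2 and 3 held 242.6, 729.2 and 647.8 CPM. Those of *gsr-1a* held 933.4, 678.6 and 815.8 CPM, and those of *trxr-2* 493.0, 936.4 and 1000.8 CPM. The double mutant libraries held 1092.0, 1014.6 and 1188.3 CPM. All 3 double mutant libraries were above the other 9, the closest being *trxr-2* library 3, while wild type and the single mutants overlapped. Over all genes tested, 1604 (10.7%) had every double mutant library above the other 9, and 2 of the 7 genes, *hsp-6* and *dnj-10*, were among them. The log2 fold change of *hsp-6* in the double mutant against wild type was 1.02 (SE 0.36, 95% interval 0.24 to 1.81, adjusted p = 0.0692 by edgeR's quasi-likelihood test). The SE was larger than the 0.25 of the median gene in this comparison, and the 2 libraries lowest in *hsp-6* were wild type library 1 and *trxr-2* library 1, which were also the 2 lowest in yolk protein counts.

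The size of the *hsp-6* difference depended on wild type library 1. Within replicate number 1 the double mutant exceeded wild type 4.50-fold, and within numbers 2 and 3 it did so 1.39 and 1.83-fold. Without wild type library 1 the log2 fold change was 0.67 and the adjusted p 0.12 by edgeR. Without the 4 libraries of number 1 it was 0.67 with an SE of 0.12 in place of 0.36, and the adjusted p was 0.00548 by edgeR. *hsp-6* was called in 6 of 21 alternatives, among them DESeq2 (adjusted p = 0.0356) and the likelihood ratio test of edgeR (adjusted p = 0.0318), and the adjusted p ranged from 0.00548 to 0.199 with the estimate between 0.67 and 1.30. The sign was positive in all 21. The part of yolk or developmental stage in the difference of these libraries was not tested.

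In the single mutants *hsp-6* was 1.499-fold wild type in *gsr-1a* (95% interval 0.87 to 2.58) and 1.5003-fold in *trxr-2* (0.87 to 2.58), and neither passed the edgeR test (adjusted p = 0.674 and 0.843). Within replicate number 2 *gsr-1a* was below wild type, at 0.93-fold. *trxr-2* was above wild type in all 3 numbers, at 2.03, 1.28 and 1.54-fold, and was called by edgeR without the 4 libraries of number 1 (log2 fold change 0.52, adjusted p = 0.0451), where *gsr-1a* was at 0.11. Without wild type library 1 the log2 fold change was 0.23 in *gsr-1a* and 0.24 in *trxr-2*. The double mutant was 1.36-fold *gsr-1a* (0.79 to 2.33) and 1.36-fold *trxr-2* (0.79 to 2.33). The first of these was called by edgeR without the 4 libraries of number 1 (log2 fold change 0.56, adjusted p = 0.0201).

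The mean of *hsp-60* was no higher in the double mutant than in *gsr-1a*, and no strain differed from wild type beyond the threshold. Its levels in wild type were 187.5, 489.6 and 448.5 CPM. They were 767.0, 432.9 and 578.2 CPM in *gsr-1a* and 320.6, 618.4 and 708.5 CPM in *trxr-2*. The double mutant held 578.9, 532.3 and 651.5 CPM. The means were 375.2 ± 163.9, 592.7 ± 167.5, 549.2 ± 203.0 and 587.5 ± 60.1 CPM in that order, so that the 3 mutant strains were within their spread of each other, and the single highest value belonged to *gsr-1a* library 1. The double mutant was above every wild type library and overlapped both single mutants. Against wild type the log2 fold change was 0.65 (SE 0.36, 95% interval -0.14 to 1.44, adjusted p = 0.237 by edgeR's quasi-likelihood test), and it was 0.66 in *gsr-1a* and 0.55 in *trxr-2*. Without wild type library 1 the edgeR estimate was 0.32 for the double mutant, 0.34 for *gsr-1a* and 0.23 for *trxr-2*. Without *trxr-2* library 3 that of *trxr-2* was 0.32. Without the 4 libraries of number 1 that of *gsr-1a* was 0.10. No call was changed by these, and *hsp-60* was called in no alternative of any comparison (adjusted p of the double mutant against wild type between 0.128 and 0.531).

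The ratio of *hsp-6* to *hsp-60* separated the double mutant from the other strains. This ratio was chosen after the values had been seen, and is given as a description with no test. Per kilobase of exon it was 1.12, 1.28 and 1.25 in wild type libraries 1, 2 and 3, and 1.05, 1.35 and 1.22 in *gsr-1a*. It was 1.33, 1.31 and 1.22 in *trxr-2* and 1.63, 1.64 and 1.57 in the double mutant. Wild type library 1 and *trxr-2* library 1, low in both transcripts, had ratios within the range of the other wild type and single mutant libraries, and all 3 double mutant libraries were above the remaining 9. The mean was 1.61 ± 0.04 in the double mutant, which is 1.33-fold the 1.22 ± 0.09 of wild type, 1.35-fold the 1.21 ± 0.15 of *gsr-1a* and 1.26-fold the 1.28 ± 0.06 of *trxr-2* as geometric means. Among the 7952 genes with a mean of at least 10 CPM, 100 (1.26%) had a ratio to *hsp-60* that was higher in every double mutant library than in the other 9, and 79 (0.993%) one that was lower.

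**Figure D2:**
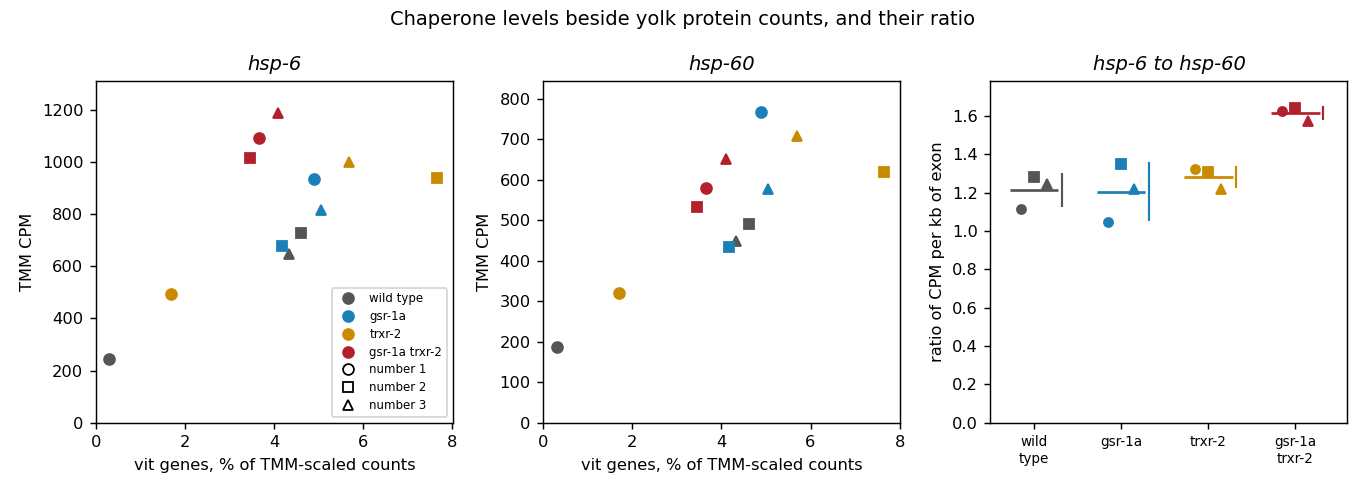
Left and middle, CPM of *hsp-6* and *hsp-60* in each of the 12 libraries against the share of scaled counts from the 6 *vit* genes, coloured by strain with a symbol for each replicate number. Right, the *hsp-6* to *hsp-60* ratio per kb of exon with the mean (bar) and SD (line) of 3 libraries. Wild type library 1 (0.300% yolk counts) is lowest in both transcripts, and the ratio is 1.57 to 1.64 in the double mutant against 1.05 to 1.35 elsewhere.

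The tissues read by marker genes also differed between these libraries. The summed level of 5 body wall muscle markers was 762 to 2981 CPM for wild type, 2597 to 4877 for *gsr-1a*, 2163 to 4638 for *trxr-2* and 3848 to 4025 for the double mutant, with wild type library 1 lowest. None of the 5 muscle markers passed the edgeR test in the double mutant. The 5 oocyte markers summed to 1563 CPM in wild type library 1 and 1807 in *trxr-2* library 1, against 2636 to 3249 in the others. For 6 germline markers the values were 788 and 940 against 1217 to 1647 CPM. The 5 hypodermis markers were at 1028 and 1830 against 1460 to 2835 CPM, and the 5 neuron markers at 190 and 184 against 163 to 199 CPM. The 31 major sperm protein genes summed to 202 to 284 CPM in wild type, 375 to 733 CPM for *gsr-1a*, 159 to 390 CPM for *trxr-2* and 637 to 1486 CPM for the double mutant. All 26 that could be tested rose in the double mutant against wild type, beside 12.5% of all genes. In *gsr-1a* 1 of the 26 rose, beside 0.0267% of all genes called. In the same strain 23 had an unadjusted p under 0.05 by edgeR, beside 8.26% of all genes, with a median log2 fold change of 1.01. In *trxr-2* 1 of the 26 also rose, beside 0.0666% of all genes called, and the median was -0.06. In each strain 3 genes of the list were at 0. The 4 intestinal markers summed to 391 to 595 CPM in wild type, 540 to 779 CPM for *gsr-1a*, 477 to 757 CPM for *trxr-2* and 660 to 799.7 CPM in the double mutant. Of the 4, 2 rose in the double mutant against wild type, beside 12.5% of all genes. The 6 *vit* genes, also transcribed in the intestine, went the other way in the double mutant. Their median log2 fold change was -0.90 against wild type and -1.53 against *trxr-2*. In RNA of whole worms, fewer cells of a type and less RNA per cell cannot be told apart, and the part of these tissues in the levels of the 7 genes was not tested.

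Among the regulators, no transcript passed the test in any comparison. *atfs-1*, the bZIP factor at the centre of the response, had 92.7, 105.4 and 110.5 CPM in wild type and 114.1, 105.0 and 111.1 CPM in *gsr-1a*. It had 95.5, 118.8 and 121.9 CPM in *trxr-2* and 140.2, 114.2 and 128.3 CPM in the double mutant. The double mutant lay above all wild type and *gsr-1a* libraries and overlapped *trxr-2*, with a mean of 127.6 ± 13.0 against 102.8 ± 9.16 CPM in wild type. The difference was 1.24-fold (95% interval 1.02 to 1.501), with an unadjusted p of 0.0301 and an adjusted p of 0.109 by edgeR's quasi-likelihood test, and it was called in none of 21 alternatives. Within replicate numbers it was 1.51, 1.08 and 1.16-fold, so it was largest within number 1. Without the 4 libraries of number 1 the log2 estimate was 0.16 in place of 0.31.

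*ubl-5* was the regulator with the lowest fold in the double mutant against wild type. Its values were 49.0, 36.8 and 32.9 CPM in wild type and 40.9, 34.2 and 31.6 CPM in *gsr-1a*. In *trxr-2* they were 55.6, 25.6 and 33.0 CPM, and in the double mutant 30.5, 27.1 and 28.4 CPM. The double mutant was below every wild type and *gsr-1a* library, while *trxr-2* library 2 was lower still. The 2 libraries lowest in *hsp-6* and *hsp-60*, wild type library 1 and *trxr-2* library 1, were the 2 highest in *ubl-5*. The double mutant mean was 28.6 ± 1.71 against 39.6 ± 8.40 CPM in wild type, or 0.72-fold (95% interval 0.50 to 1.05, adjusted p = 0.21 by edgeR's quasi-likelihood test), and within replicate numbers 0.62, 0.74 and 0.86-fold. Its log2 fold change was -0.47, and -0.29 without wild type library 1. For *trxr-2* against wild type it was -0.06, and -0.43 to 0.16 with single libraries left out. For the double mutant against *trxr-2* it was -0.41, and -0.62 to -0.04 with single libraries left out.

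The levels of *dve-1* and *haf-1* differed by less than their spread between the 4 strains. *dve-1* ranged from 13.0 to 19.3 CPM over the 12 libraries, and its mean was 16.9 ± 1.501 for wild type, 16.8 ± 2.76 for *gsr-1a*, 15.1 ± 2.68 for *trxr-2* and 16.9 ± 1.26 CPM for the double mutant. The 95% interval of its change in the double mutant was 0.78 to 1.28-fold, and within replicate numbers the fold was 0.999, 0.986 and 1.016. *haf-1* ranged from 6.9 to 8.8 CPM, with means of 8.25 ± 0.677, 7.80 ± 0.816, 8.02 ± 0.880 and 7.77 ± 0.769 CPM in the same order of strains. Its interval in the double mutant was 0.741 to 1.2003-fold. The upper ends of both intervals were below the 1.41-fold of *dnj-10*.

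**Figure D3:**
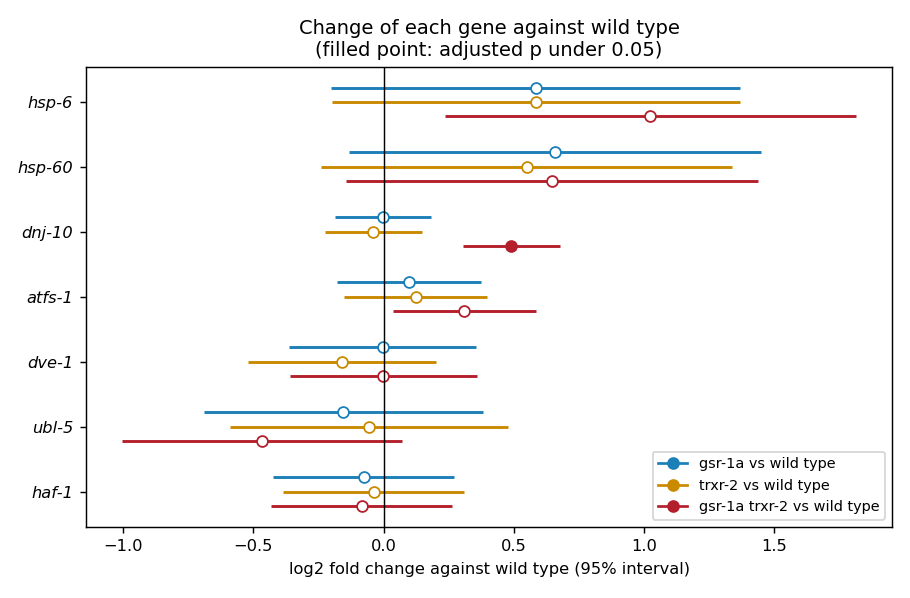
Log2 fold change of each gene against wild type in *gsr-1a*, *trxr-2* and the double mutant, with lines for the 95% interval of edgeR's quasi-likelihood fit and a filled point where the adjusted p was under 0.05. Only *dnj-10* in the double mutant (0.49, interval 0.31 to 0.68) is filled, and the intervals of *hsp-6* and *hsp-60* are the widest.

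Counted over the 7 genes, none was called in *gsr-1a* against wild type, where 0.0267% of the 15004 genes were called by edgeR's quasi-likelihood test, and none was at an unadjusted p under 0.05, as were 8.26% of all genes. None was called in *trxr-2* against wild type, where 0.0666% of all genes were, and again none was at an unadjusted p under 0.05 beside 5.85% of all genes. DESeq2 also called none of the 7 in either single mutant. In the double mutant against wild type 1 of 7 was called, *dnj-10*, beside 18.8% of all genes (12.5% higher and 6.3% lower). This share of the 7 was no larger than that of all genes. At an unadjusted p under 0.05 there were 3 of the 7 genes (*dnj-10*, *hsp-6* and *atfs-1*) beside 32.8% of all genes. Groups did not overlap for 4 genes that were higher (*hsp-6*, *hsp-60*, *dnj-10* and *atfs-1*) and 1 that was lower (*ubl-5*), beside 23.9% and 21.6% of all genes. The median log2 fold change of the 7 genes was 0.31, and that of all genes 0.03. Without wild type library 1, 1 of the 7 was called in this comparison, beside 13.6% of all genes tested. Without *trxr-2* library 1 there were 2, *dnj-10* and *hsp-6*, beside 23.1% of all genes, and without both libraries there were also 2, beside 22.3%.

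In the double mutant against *gsr-1a*, 1 of the 7 genes was called (*dnj-10*) beside 3.57% of all genes, and against *trxr-2* 1 of 7 (*dnj-10*) beside 11.6%. Groups did not overlap for 4 genes against *gsr-1a*, 3 higher (*hsp-6*, *dnj-10* and *atfs-1*) and 1 lower (*ubl-5*), beside 32.8% of all genes in either direction. Against *trxr-2* there were 2 higher genes, *hsp-6* and *dnj-10*, beside 17.6% of all genes. The comparisons share the double mutant libraries or the wild type libraries, so they are not independent of each other.

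The other genes of the pathway were read from lists of regulators, chaperones and proteases. In both single mutants no gene of these lists was called, beside 0.0267% of all genes in *gsr-1a* and 0.0666% in *trxr-2*. The 14 other UPRmt regulators include the ClpP protease gene *clpp-1* and genes of chromatin modifiers. None of them was called in the double mutant against wild type, beside 18.8% of all genes. An unadjusted p under 0.05 by edgeR was found for 1 of the 14, beside 32.8% of all genes. The closest to the threshold was *rheb-1*, which encodes the Rheb GTPase that activates TORC1, with a log2 fold change of -0.45 (SE 0.15, adjusted p = 0.0575 by edgeR). The SUMO gene *smo-1* was at -0.39 and the histone demethylase gene *jmjd-3.1* at -0.57, and neither passed. The median of this list was 0.14.

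Of 8 other mitochondrial chaperones and cochaperones, 7 were tested and 1 rose in the double mutant against wild type, beside 12.5% of all genes. This was *phb-1*, which encodes a prohibitin of the inner membrane, with 346.1 ± 25.4 CPM in the double mutant against 247.9 ± 8.76 in wild type (log2 fold change 0.48, SE 0.15, adjusted p = 0.0403 by edgeR's quasi-likelihood test). The single mutants had 311.6 ± 63.1 (*gsr-1a*) and 297.0 ± 20.9 CPM (*trxr-2*). Against neither of them did *phb-1* pass in the double mutant (adjusted p = 0.615 and 0.472 by edgeR). Its partner *phb-2* was at 0.04 (SE 0.16) against wild type. The median of the 7 was 0.04, beside 0.03 for all genes.

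Of 13 genes of mitochondrial proteases and import, 1 rose in the double mutant against wild type and 12 did not pass, while 12.5% of all genes rose. *spg-7*, which encodes a subunit of the matrix-facing AAA protease of the inner membrane, had 171.3 ± 14.2 CPM in the double mutant, while *gsr-1a* had 134.1 ± 13.5, *trxr-2* 133.4 ± 27.0 and wild type 106.8 ± 15.8 CPM. Its log2 fold change against wild type was 0.68 (SE 0.16, adjusted p = 0.0143 by edgeR). *ymel-1*, the AAA protease that faces the intermembrane space, was at 0.56 (SE 0.22, adjusted p = 0.0931) and *timm-23*, the channel of the inner membrane translocase, at 0.56 (SE 0.24, adjusted p = 0.133) by the same edgeR test. The Lon protease gene *lonp-1* and *clpp-1* were at 0.15 and 0.19.

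Chaperones outside mitochondria did not pass in either direction, 0 of 16 in the double mutant against wild type, beside 18.8% of all genes. Of the 16, 2 were at an unadjusted p under 0.05 by edgeR, beside 32.8% of all genes. The list holds Hsp70 and Hsp90 genes of the cytosol and endoplasmic reticulum and the subunits of the cytosolic chaperonin. The inducible Hsp70 genes *F44E5.4* and *F44E5.5* were at -1.73 (SE 0.69) and -1.34 (SE 0.60), and as near-identical copies they share reads that the counting dropped. The reporter gene of endoplasmic reticulum stress *hsp-4* was at 0.22 (SE 0.20).

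*dnj-10* differed in direction from the called members of its own family. Among the 28 other genes with a *dnj* name, 3 fell and none rose in the double mutant against wild type, and the median log2 fold change was -0.19. *dnj-2* fell by 0.52 (SE 0.11, adjusted p = 0.009 by edgeR's quasi-likelihood test), *dnj-26* fell by 0.88 (SE 0.21, adjusted p = 0.0151) and *dnj-23* fell by 0.37 (SE 0.10, adjusted p = 0.0291). *dnj-27*, a J-domain protein of the endoplasmic reticulum, was at -0.41 (adjusted p = 0.0531 by edgeR). Of all genes, 12.5% were called higher and 6.3% lower in this comparison.

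*haf-1* belongs to a family of ABC transporter subunits that pair to form a working transporter. Of 7 other tested genes of this family 3 rose in the double mutant against wild type and none fell, beside 12.5% and 6.3% of all genes, with a median log2 fold change of 0.36. *haf-9* and *haf-4*, which encode transporter subunits of intestinal lysosome-related organelles, rose by 0.52 (SE 0.14, adjusted p = 0.0212) and 0.63 (SE 0.17, adjusted p = 0.0238) by edgeR's quasi-likelihood test. The level of *haf-9* was 52.9 ± 4.68 CPM in the double mutant, 36.8 ± 3.43 in wild type, 33.5 ± 6.32 in *gsr-1a* and 34.7 ± 1.13 in *trxr-2*. *haf-3* rose by 0.33 (SE 0.10, adjusted p = 0.0316). The summed level of the 4 intestinal markers was also higher in the double mutant than in wild type, but overlapped both single mutants. For the *vit* genes the median log2 fold change against wild type was -0.90, with none called, as given above. The part of the intestine in the *haf-4* and *haf-9* values was not tested.

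*atfs-1* was set beside 25 other tested bZIP factor genes, of which 5 rose and 3 fell in the double mutant against wild type, beside 12.5% and 6.3% of all genes. *zip-11* rose and had 13.1 ± 0.383 CPM in the double mutant against 6.08 ± 0.412 in wild type (log2 fold change 1.10, SE 0.16, adjusted p = 0.0015 by edgeR's quasi-likelihood test), with 7.46 ± 0.821 in *gsr-1a* and 9.08 ± 1.39 in *trxr-2*. *fos-1*, the worm Fos, rose by 0.68 (SE 0.16, adjusted p = 0.0143). *zip-8* fell by 0.86 (SE 0.18, adjusted p = 0.00816) and *ces-2*, which acts in the death of specific neurons, fell by 1.70 (SE 0.43, adjusted p = 0.0181) by the same edgeR test. The median of the 25 was 0.14.

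**Figure D4:**
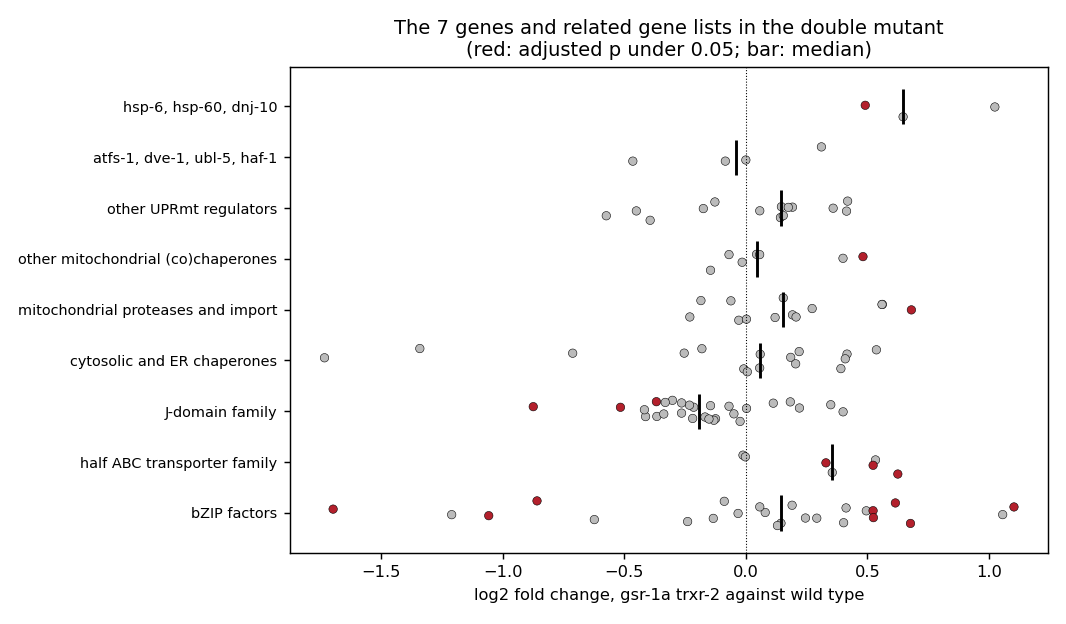
Log2 fold change of each gene in the double mutant against wild type, with the 7 genes in the upper rows and the other lists below. Each point is a gene, red where the adjusted p was under 0.05, and the bar is the median of its row. The J-domain row has its median at -0.19 and the row of the *haf* family at 0.36, while *atfs-1*, *dve-1*, *ubl-5* and *haf-1* have no red point.

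The genes with the profile nearest to those of *hsp-6* and *hsp-60* over the 12 libraries were taken as a description. Likeness was the root mean square difference of log2 CPM, each gene relative to its own mean, over 7952 genes with at least 10 CPM. Nearest to *hsp-6* were *gdh-1* (glutamate dehydrogenase, 0.113), *ahcy-1* (adenosylhomocysteinase, 0.127), *tkt-1* (transketolase, 0.128), *maph-1.1* (a microtubule-associated protein, 0.133) and *acly-1* (ATP citrate lyase, 0.141). None of these 5 passed the edgeR test in the double mutant against wild type, beside 18.8% of all genes, with log2 fold changes of 0.76 to 1.16. They were chosen for likeness to *hsp-6*, which also missed the threshold, so this is no separate result. Nearest to *hsp-60* were *prg-1* (the Piwi Argonaute, 0.104), *atp-2* (a subunit of mitochondrial ATP synthase, 0.118), *maph-1.2* (0.132), *gyf-1* (0.135) and *maph-1.3* (0.138). *hsp-60* itself stood at rank 43 from *hsp-6*, and *hsp-6* at rank 110 from *hsp-60*, of 7952 genes. *dnj-10* stood at rank 2254 from *hsp-6*, *atfs-1* at rank 1555 and *ubl-5* at rank 7488, near the end of the order. The 12 libraries are the same for every gene, and the deviations of wild type library 1 and *trxr-2* library 1 enter every distance.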

How the data were processed

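Whole-worm polyA RNA of 12 libraries, 3 for each of 4 strains, was sequenced from strand-specific mRNA libraries. The authors deposited raw counts of read pairs per gene, 1 table per library. Per the labels and the file headers, reads were aligned to WBcel235 with HISAT2 and counted with featureCounts 2.0.0 on the coding strand of Ensembl release 97 genes, exons and introns alike, without pairs that fit several places or genes. Deposited counts of near-identical genes are therefore too low. The study names DESeq2 and edgeR for its own tests. Depth ranged from 12114187 to 19688212 counts per library.

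Counts were scaled by TMM and filtered by expression within strains in edgeR 4.0.16 (R 4.3.3, limma 3.58.1), which left 15004 of 46904 genes. The model had all 12 libraries, a mean for each strain and 8 residual degrees of freedom, and edgeR's quasi-likelihood test was used with p-values adjusted by Benjamini-Hochberg over every gene tested, at a threshold of 0.05. The 6 contrasts were each mutant strain against wild type, the double mutant against each single mutant, and the interaction. SEs are the log2 fold change divided by the square root of F. Symbols were found for 93.8% of identifiers, and exon lengths came from Ensembl release 115 of the same build. Scripts were tested on simulated data.

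The 7 genes and all lists were chosen with earlier results of these data known. Beside the 7 genes and the mutated genes, up to 4 genes per list with the smallest adjusted p in the double mutant against wild type were named, and the 5 genes with the profile nearest to *hsp-6* and to *hsp-60*. Other genes (*phb-2*, *lonp-1*, *clpp-1*, *hsp-4*) were named for their role after their values were seen. Of the listed genes, *hsp-75*, *haf-8*, *sknr-1* and *zip-6* did not pass the filter. Alternatives were the likelihood ratio test of edgeR, DESeq2 1.42.0, RLE scaling, other filters, the replicate number as a block, fits of only the strains compared, and fits without single libraries or without those of number 1. The fit without the wild type and *trxr-2* libraries of number 1 was added after the data had been seen. Same-numbered libraries deviated from their strain means together, in all 3 pairs, for wild type with *gsr-1a* (r from 0.13 to 0.23). For wild type with *trxr-2* they did so as well (r from 0.27 to 0.54). Some different-numbered libraries did too, such as wild type library 3 with *trxr-2* library 2 (r = 0.38). Over all strains r exceeded 0.1 in 9 of 18 same-numbered and 9 of 36 different-numbered pairs. These values do not show that the numbers mark pairs, and the labels do not say what a number marks. The main fit had no term for the number, which entered only as a block in 1 alternative.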

Additional observations from a re-analysis of the deposited data

How the results depend on the processing

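The rise of *dnj-10* in the double mutant kept its direction in every alternative of the 3 double mutant comparisons, and the calls lost are given above. The size of the *hsp-6* and *hsp-60* differences from wild type depended on single libraries, wild type library 1 among them. With single libraries left out, the log2 fold change of the double mutant against wild type was 0.67 to 1.30 for *hsp-6*. For *hsp-60* it was 0.32 to 0.88. Calls of the 7 genes in the double mutant against wild type went from 1 to 2 under DESeq2, under the likelihood ratio test, with the replicate block, without the 4 libraries of number 1 and without the wild type and *trxr-2* libraries of number 1, and were 1 to 2 with single libraries left out. Against *gsr-1a* they went from 1 to 2 without the 4 libraries of number 1 and without both libraries, and were 0 to 1 with single libraries left out. For *trxr-2* against wild type they went from 0 to 1 without the 4 libraries of number 1. For the interaction they went from 0 to 1 under DESeq2, with the replicate block, without the 4 libraries of number 1 and without both libraries. Why the calls depend on these settings was not tested.

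Counts of all genes called moved by over 1.5 times as follows. For *gsr-1a* against wild type there were 4, against 41 under DESeq2, 33 under the likelihood ratio test, 15 without the 4 libraries of number 1 and 9 without both libraries. For *trxr-2* against wild type there were 10, against 21 under DESeq2, 22 under the likelihood ratio test, 4 with only the strains compared and 519 without the 4 libraries of number 1. For the double mutant against wild type there were 2824, and 1456 to 3567 with single libraries left out. Against *gsr-1a* there were 536, against 1405 under DESeq2, 1398 under the likelihood ratio test, 854 with only the strains compared, 2221 without the 4 libraries of number 1, 2543 without both libraries and 159 to 1139 with single libraries left out. Against *trxr-2* there were 1747, against 3826 without the 4 libraries of number 1 and 2913 without both. For the interaction there were 115, against 395 under DESeq2, 478 under the likelihood ratio test, 408 without the 4 libraries of number 1, 432 without both and 50 to 294 with single libraries left out.

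Changes of sign occurred only for log2 fold changes that were not called. Under DESeq2, *gsr-1a* against wild type gave 0.0010 for *dve-1*, *trxr-2* against wild type gave 0.011 for *dnj-10* and 0.018 for *haf-1*, the double mutant against *gsr-1a* gave -0.0075 for *dve-1*, and the interaction gave -0.037 for *haf-1*. With RLE scaling, *trxr-2* against wild type gave 0.011 for *dnj-10* and 0.016 for *haf-1*, the double mutant against *gsr-1a* gave -0.0041 for *dve-1*, and the interaction gave -0.030 for *haf-1*. With no filter, *gsr-1a* against wild type gave 0.0051 for *dnj-10* and 0.0031 for *dve-1*, the double mutant against *gsr-1a* gave -0.0049 for *dve-1*, and the interaction gave -0.0032 for *haf-1*. With a filter of 1 CPM in 3 libraries, *trxr-2* against wild type gave 0.019 for *dnj-10* and 0.024 for *haf-1*, and the interaction gave -0.034 for *haf-1*. With only the strains compared, *gsr-1a* against wild type gave 0.00080 for *dnj-10*, and *trxr-2* against wild type gave 0.019 for *dnj-10* and 0.024 for *haf-1*. Without the 4 libraries of number 1, *gsr-1a* against wild type gave 0.0074 for *dnj-10*, -0.010 for *atfs-1*, 0.083 for *dve-1* and 0.035 for *haf-1*, *trxr-2* against wild type gave 0.13 for *haf-1*, the double mutant against wild type gave 0.038 for *haf-1*, the double mutant against *gsr-1a* gave 0.23 for *hsp-60*, -0.089 for *dve-1* and 0.0024 for *haf-1*, the double mutant against *trxr-2* gave -0.20 for *hsp-60* and -0.029 for *atfs-1*, and the interaction gave 0.039 for *hsp-6*, -0.019 for *atfs-1* and -0.13 for *haf-1*. Without both libraries, *gsr-1a* against wild type gave 0.023 for *dnj-10* and 0.026 for *ubl-5*, *trxr-2* against wild type gave 0.10 for *haf-1*, the double mutant against *gsr-1a* gave -0.0050 for *dve-1*, the double mutant against *trxr-2* gave -0.18 for *hsp-60*, and the interaction gave -0.11 for *haf-1*.

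With single libraries left out, the sign changed within these ranges. For *gsr-1a* against wild type it was -0.029 to 0.023 for *dnj-10*, -0.11 to 0.12 for *dve-1*, -0.27 to 0.027 for *ubl-5* and -0.15 to 0.0032 for *haf-1*. For *trxr-2* against wild type it was -0.43 to 0.16 for *ubl-5* and -0.10 to 0.043 for *haf-1*. For the double mutant against wild type it was -0.068 to 0.068 for *dve-1* and -0.15 to 0.0065 for *haf-1*. For the double mutant against *gsr-1a* it was -0.20 to 0.21 for *hsp-60*, -0.12 to 0.11 for *dve-1* and -0.087 to 0.081 for *haf-1*. For the double mutant against *trxr-2* it was -0.18 to 0.32 for *hsp-60* and -0.13 to 0.021 for *haf-1*. For the interaction it was -0.43 to 0.20 for *hsp-6*, -0.018 to 0.16 for *atfs-1*, -0.47 to 0.12 for *ubl-5* and -0.075 to 0.10 for *haf-1*.

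The labels give the strains the same replicate numbers. In the comparisons of each single mutant with wild type, same-numbered libraries deviated together, as did some different-numbered ones. There the replicate block changed no call of the 7 genes and moved the count of all genes called by less than 1.5 times. In the comparisons with the double mutant not every same-numbered pair had a correlation above 0.1 (wild type -0.042 to 0.22, *gsr-1a* -0.047 to 0.064, *trxr-2* -0.084 to 0.061). Such correlations cannot show whether those libraries share more than a number. With the double mutant, the replicate block gave a call for *hsp-6* against wild type (log2 fold change 1.11, adjusted p = 0.0403 by edgeR). It also gave one for the interaction of *dnj-10* (0.53, adjusted p = 0.0491 by edgeR).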
